A study of Mus musculus with 8 samples.

Results

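The mRNAs of the 3 cytochrome oxidase subunits that mouse mitochondria encode themselves, mt-Co1, mt-Co2 and mt-Co3, were followed through RNA of liver mitochondria from young and aged mice. The genes were chosen by name, as the complex IV members among the 13 mitochondria-encoded mRNAs, and the choice was made with the age difference of mt-Co1 in these counts already known. They are 3 of the 8688 transcripts with a count, and the 10 mitochondria-encoded mRNAs outside complex IV served as their reference. All animals were wild-type C57BL/6N mice. They were 12 weeks old (12 W) or 65 weeks old (65 W), with 4 biological replicates per age and no other treatment. Organelles came from homogenised liver by differential centrifugation and a sucrose gradient, and their RNA was freed of DNA and turned into cDNA from its poly(A) tails. Each of the 8 PCR-amplified cDNA samples received a barcode, and all were read together on a single Nanopore flow cell. The 12 W mice were female by the study's own description, and none of the sources used here states the sex of the aged mice, so age and sex cannot be told apart.

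Cytochrome oxidase, complex IV of the respiratory chain, passes electrons from cytochrome c to oxygen and pumps protons across the inner membrane. COX1 carries the haem groups and the copper centre where oxygen is reduced, COX2 the copper centre that accepts electrons from cytochrome c, and COX3 completes the catalytic core without a metal of its own. The other subunits are nuclear-encoded and imported. All 3 mitochondrial genes lie on the same strand and are transcribed as parts of long polycistronic RNAs, from which the excision of tRNAs frees most mRNAs, and the mature mRNAs receive short poly(A) tails.

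On the mitochondrial chromosome of GRCm38, mt-Co1 (ENSMUST00000082402.1) extends from 5328 to 6872 on the plus strand, mt-Co2 (ENSMUST00000082405.1) from 7013 to 7696 and mt-Co3 (ENSMUST00000082409.1) from 8607 to 9390. Their annotated coding lengths are 1545, 684 and 784 nt. The gene mt-Co2 has tRNA genes on its own strand on both sides, mt-Td 1 base before it and mt-Tk 3 bases after it. The tRNA genes next to mt-Co1, mt-Ty and mt-Ts1, lie on the other strand, and mt-Ts1 overlaps its last 3 bases. Between mt-Atp6 and mt-Co3 there is no tRNA, since the genes share 1 base, and mt-Tg follows mt-Co3 directly. The ends of the annotated coding sequences are shown, since the cDNA was primed from poly(A) tails. For mt-Co1 the next tRNA gene on its own strand, mt-Td, starts only at 6942, and where the mt-Co1 tail begins was not analysed. The capitals mark the stop codon or the part of it that the genome encodes. In mt-Co3 that part is a single T, the rest being supplied by the tail.

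mt-Co1, chrM:6813-6872: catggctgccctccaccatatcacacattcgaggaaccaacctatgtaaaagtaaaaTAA

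mt-Co2, chrM:7637-7696: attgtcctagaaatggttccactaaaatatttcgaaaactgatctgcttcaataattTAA

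mt-Co3, chrM:9331-9390: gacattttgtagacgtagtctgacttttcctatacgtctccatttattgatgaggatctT

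Of the last 20 bases of the annotated coding sequence, 11 are A in mt-Co1, 7 in mt-Co2 and 5 in mt-Co3. A primer of T bases can also anneal to a run of A inside an mRNA, and a run of 6 or more A, searched on the sense strand as AAAAAA, occurs once in mt-Co1 and not in mt-Co2 or mt-Co3. It has 7 A, in capitals in the stretch shown here, and starts at base 789 of the mRNA, counted from the 5′ end. Such a run is found in 5 of the 13 mitochondria-encoded mRNAs and in 37.7% of all annotated mouse transcripts. Whether reads began at it was not analysed here.

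mt-Co1, chrM:6096-6142: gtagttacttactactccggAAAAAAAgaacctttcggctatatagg

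The 12 W libraries held 104554 to 191092 counts each and the 65 W libraries 12630 to 105252, the shallowest being 65W-1 and 65W-3. The 13 mitochondria-encoded mRNAs took 74.8 to 82.4% of them. The hepatocyte markers Alb, Apoa1, Ttr, Serpina1c and Fgb all had a row and together 10820 counts, in the range of 1026 to 2593 per library at 12 W and 175 to 1498 at 65 W. Marker lists of 5 genes each for other liver cells held far fewer. Macrophage markers had 92 counts in all (11 to 30 at 12 W, 1 to 13 at 65 W), erythroid markers 69 (0 to 46, 0 to 5), T and B cell markers 44 (2 to 24, 1 to 3), stellate cell markers 32 (2 to 10, 0 to 7) and endothelial markers 21 (1 to 7, 0 to 4). Of these markers, Hba-a1, Cd79a and Pecam1 had no row. The part of other cells in the results was not tested. In bulk RNA, fewer mitochondria of a kind and less of an mRNA in each cannot be told apart.

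Together, the complex IV mRNAs made up 24.7, 23.3, 20.8 and 24.6% of the mitochondria-encoded mRNA counts in 12W-1 to 12W-4, and 18.4, 19.3, 25.1 and 15.7% in 65W-1 to 65W-4. The highest and the lowest share both belonged to the 65 W group. For every 1000 counts on the 10 mRNAs outside complex IV, the 3 mRNAs summed to 305 ± 30.7 counts at 12 W (SD, n = 4) and to 246 ± 62.8 at 65 W (SD, n = 4). The mean log2 difference was -0.34 with a standard error of 0.19, and the groups overlapped through 65W-3. These 3 mRNAs did not behave as one block, however. The level of mt-Co1 moved apart from those of mt-Co2 and mt-Co3, which kept nearly the same proportion to each other in all 8 libraries.

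The mRNA of the catalytic subunit, mt-Co1, had 17692, 7734, 7526 and 10378 counts in 12W-1 to 12W-4 and 704, 4434, 758 and 3346 counts in 65W-1 to 65W-4. Relative to 1000 counts of the 10 other mRNAs the 12 W libraries had 156, 120.2, 82.0 and 116 and the 65 W libraries 88.2, 77.6, 59.7 and 46.4. All 12 W libraries except 12W-3 lay above every 65 W library, and 12W-3 fell between 65W-1 and 65W-2. The means were 119 ± 30.4 at 12 W and 68.0 ± 18.6 at 65 W (SD, n = 4 each), a log2 difference of -0.81 with a standard error of 0.28. Because this age difference was known when the genes were chosen, it is given as a description without a test. The lowest value came from 65W-4, the deepest 65 W library, at 105252 counts. Without 12W-3 or without 65W-1 the groups no longer overlapped (log2 difference -0.98 and -0.95), while 6.82% and 6.06% of the 132 transcripts kept did not overlap in those comparisons.

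For mt-Co2, which encodes the subunit that binds cytochrome c, 12W-1 to 12W-4 had 6303, 4223, 5538 and 6012 counts, and 65W-1 to 65W-4 had 381, 3324, 1159 and 3308. The level was 55.7, 65.7, 60.4 and 67.4 per 1000 counts of the 10 mRNAs at 12 W, and at 65 W it was 47.8, 58.2, 91.2 and 45.9. The 12 W libraries thus lay inside the range of the 65 W libraries, which was set by 65W-3 at its upper end. Means were 62.3 ± 5.29 and 60.8 ± 21.02 (SD, n = 4 each), and the log2 difference was -0.09 with a standard error of 0.24. Without 65W-3 the log2 difference was -0.30 (standard error 0.12) and the groups still overlapped, and without 65W-4 it was 0.03.

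For mt-Co3, the third core subunit, the 12 W libraries had 13110, 7631, 10999 and 12792 counts and the 65 W libraries 711, 5906, 2329 and 6777. This corresponds to 116, 119, 119.9 and 143 per 1000 counts of the 10 mRNAs at 12 W, and at 65 W to 89.1, 103, 183 and 94.0. The 65 W group held the highest level and also the 3 lowest. With means of 124 ± 12.7 and 117 ± 44.3 (SD, n = 4 each), the log2 difference was -0.14 with a standard error of 0.25. It was 65W-3, a library of 22651 counts, that made the groups overlap. Without it the 65 W mean was 95.5 ± 7.26 (SD, n = 3), below every 12 W library, and the log2 difference was -0.38 (standard error 0.09). In that comparison 9.85% of the 132 transcripts did not overlap.

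**Figure D1:**
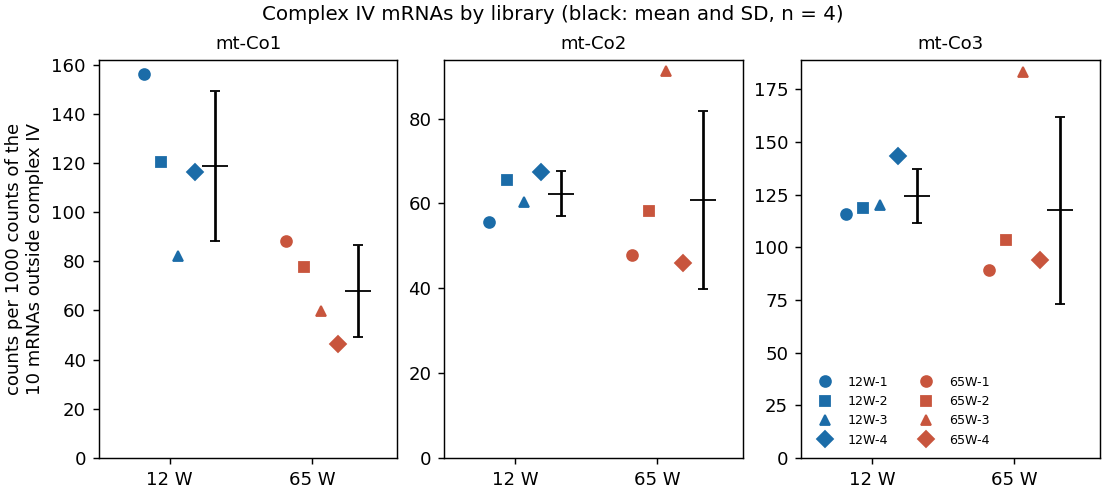
Level of mt-Co1, mt-Co2 and mt-Co3 (y axis, counts per 1000 counts of the 10 mitochondria-encoded mRNAs outside complex IV, linear from 0) in each 12 W (blue) and 65 W (red) library, with the marker shape giving the replicate and the black bars the mean and SD of 4 libraries. Only 12W-3 among the 12 W libraries reaches into the 65 W range of mt-Co1 (82.0 against 88.2 in 65W-1), while 65W-3 stands above all others for mt-Co2 (91.2) and mt-Co3 (183).

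With all 8 libraries, 0 of the 3 mRNAs had groups that did not overlap at this scale, where 4.55% of the 132 transcripts kept did not overlap. In edgeR's quasi-likelihood fit over the 132 transcripts with TMM scaling, 0 of the 3 were called at an adjusted p under 0.05, with 1.52% of all transcripts called. The fitted log2 differences were -0.75 (standard error 0.36) for mt-Co1, -0.07 (0.27) for mt-Co2 and -0.12 (0.24) for mt-Co3, beside a median of -0.15 over all transcripts kept. Nothing is read from these calls, since the rule for choosing the genes used the same contrast.

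Ratios within complex IV need no reference, because both counts come from the same library. The ratio of mt-Co1 to mt-Co2 counts was 2.81, 1.83, 1.36 and 1.73 in 12W-1 to 12W-4 and 1.85, 1.33, 0.654 and 1.01 in 65W-1 to 65W-4. Its highest value was 4.29 times its lowest. The means were 1.93 ± 0.618 and 1.21 ± 0.507 (SD, n = 4 each) with overlapping groups, and the log2 ratio at 65 W differed by -0.72 (standard error 0.38). Without 65W-3 this difference was -0.46.

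Relative to mt-Co3, mt-Co1 gave a similar picture, with count ratios of 1.35, 1.01, 0.684 and 0.811 at 12 W and 0.990, 0.751, 0.325 and 0.494 at 65 W. Again the ages overlapped, with means of 0.965 ± 0.290 and 0.640 ± 0.292 (SD, n = 4 each) and a log2 difference of -0.67 (standard error 0.41). Leaving out 65W-3 moved it to -0.38. In both ratios 65W-1 lay within the range of the 12 W libraries, and 12W-3 and 12W-4 lay within that of the 65 W libraries.

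The ratio of mt-Co2 to mt-Co3 counts was nearly constant, at 0.481, 0.553, 0.504 and 0.470 at 12 W against 0.536, 0.563, 0.498 and 0.488 at 65 W. The highest value was 1.20 times the lowest, across libraries whose total counts ran from 12630 to 191092. The mean was 0.502 ± 0.0371 at 12 W and 0.521 ± 0.0346 at 65 W (SD, n = 4 each), a log2 difference of 0.05 with a standard error of 0.07. Even 65W-3, where both mRNAs were highest against the reference, kept the ratio, at 0.498 (95% interval from counts 0.464 to 0.534). Such intervals cover counting error only, since PCR products without molecular identifiers are not independent molecules.

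**Figure D2:**
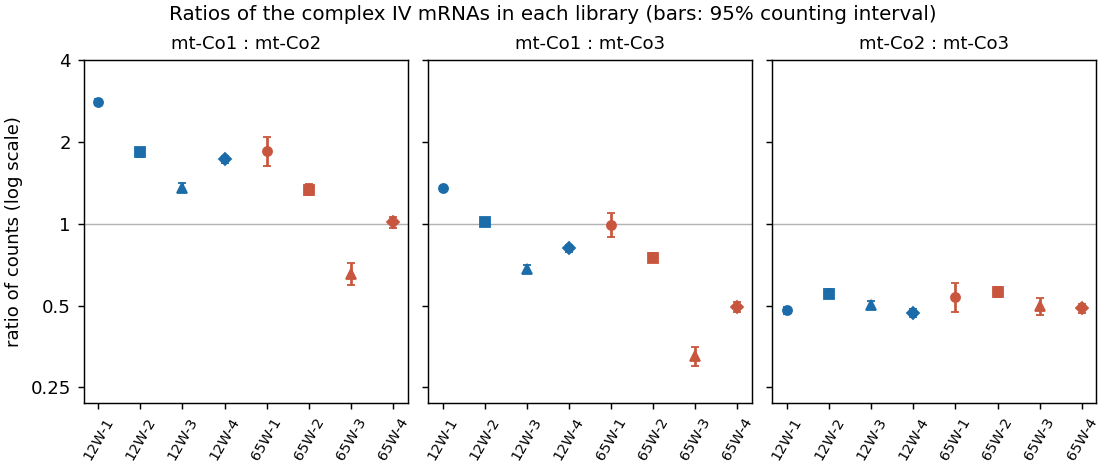
Ratio of counts (y axis, log scale) of mt-Co1 to mt-Co2, mt-Co1 to mt-Co3 and mt-Co2 to mt-Co3 in each of the 8 libraries (x axis; 12 W blue, 65 W red), with 95% intervals from counts as bars. The ratio of mt-Co2 to mt-Co3 stays between 0.470 and 0.563, while that of mt-Co1 to mt-Co2 runs from 0.654 to 2.81.

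As shares of the 3 mRNAs, mt-Co1 made up 38.5% ± 6.98 at 12 W and 28.6% ± 9.24 at 65 W (SD, n = 4 each). The share of mt-Co2 was 20.5% ± 2.57 and 24.4% ± 2.49, and that of mt-Co3 was 41.0% ± 4.71 and 47.0% ± 6.90. All 3 shares overlapped between the ages. The extreme compositions were those of 12W-1, with 47.7% mt-Co1, and 65W-3, with 17.9%.

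How much a ratio varied within an age group was compared over all 78 pairs of the 13 mitochondria-encoded mRNAs, as the SD of the log2 ratio pooled over both ages. By this pooled SD, the 3 steadiest of the 78 pairs were those among mt-Co2, mt-Co3 and mt-Atp6. The SD was 0.07 for mt-Atp6 with mt-Co2, 0.09 for mt-Atp6 with mt-Co3 and 0.10 for mt-Co2 with mt-Co3. These were 1.49, 2.07 and 2.28 times the SD that counting error alone gives. The 65 W libraries set this order: there the same pairs took places 2, 1 and 3, whereas among the 12 W libraries, where most ratios varied little, they took places 3, 23 and 15. The steadiest pair at 12 W was mt-Nd2 with mt-Co2 (SD 0.05). Among the 65 W libraries, mt-Co2, mt-Co3 and mt-Atp6 were all highest in the shallow 65W-3, at 91.2, 183 and 108 counts per 1000 counts of the 10 mRNAs. There mt-Nd2 was not at its highest, with 70.9 against 71.7 in 65W-2. The order of the pairs without 65W-3 was not computed. The gene mt-Atp6, which encodes the proton channel subunit of ATP synthase, is the direct upstream neighbour of mt-Co3, with which it shares 1 base, and mt-Co2 lies upstream of it beyond mt-Tk and mt-Atp8.

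The 3 least steady of the 78 pairs by the pooled SD were mt-Co1 with mt-Co2 (SD 0.54), with mt-Atp6 (0.57) and with mt-Co3 (0.58). These were 11.6, 12.6 and 14.4 times the SD from counting error. The 12 pairs that include mt-Co1 had a median SD of 0.43 and the 66 others a median of 0.29. At 12 W the SD was 0.44, 0.42 and 0.42 for mt-Co1 with mt-Co2, mt-Atp6 and mt-Co3 (places 77, 74 and 76 of 78), and mt-Co1 with mt-Nd1 was the least steady (0.46). At 65 W the SD was 0.63, 0.69 and 0.70 (places 71, 77 and 78), and pairs without mt-Co1 spread about as much, among them mt-Co3 with mt-Nd1 (0.68) and mt-Co3 with mt-Atp8 (0.66). Some pairs with mt-Co1 were steadier at 65 W, with an SD of 0.19 for mt-Nd1 and 0.20 for mt-Nd6 (places 12 and 14). The SD of mt-Co2 with mt-Co3 was 0.10 at each age. These are descriptions across pairs that share mRNAs and libraries, and no test was made of them.

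Over all 8 libraries, the mRNAs whose counts kept the steadiest proportion to mt-Co2 were mt-Atp6 (SD of the log2 ratio 0.07), mt-Co3 (0.10) and mt-Nd3 (0.15). For mt-Co3 they were mt-Atp6 (0.08), mt-Co2 (0.10) and mt-Nd3 (0.19). mt-Co1 came last of 12 for mt-Co2 and also for mt-Co3. The closest to mt-Co1 were mt-Nd6 (0.44), the mRNA transcribed from the opposite strand, mt-Nd2 (0.51) and mt-Nd1 (0.51), and its complex IV partners were in places 8 and 9. In 65W-3, where mt-Co2, mt-Co3 and mt-Atp6 were all at their highest, mt-Nd3 was also at its highest, with 24.95 counts per 1000, and mt-Co1 was not.

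**Figure D3:**
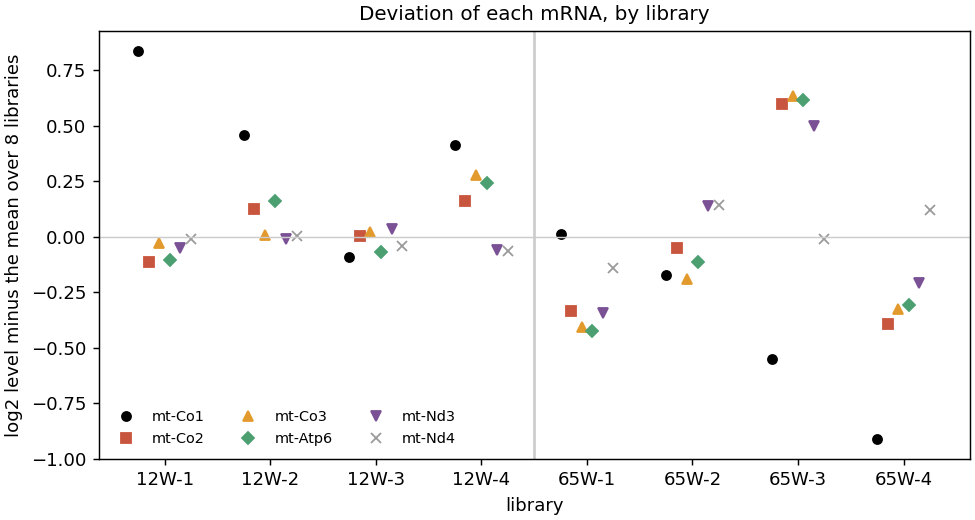
Deviation of the log2 level (counts per 1000 counts of the 10 mRNAs outside complex IV) from the mean of the mRNA over 8 libraries (y axis), for the complex IV mRNAs and for mt-Atp6, mt-Nd3 and mt-Nd4 in each library (x axis; 12 W left of the grey line, 65 W right). Symbols of mt-Co2, mt-Co3 and mt-Atp6 lie close together in every library. In several libraries mt-Co1 lies apart from them, above in 12W-1, 12W-2 and 65W-1 and below in 65W-3 and 65W-4. It lies near them in 12W-3 and 65W-2.

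Among the 119 nuclear transcripts kept, the closest to mt-Co2 and to mt-Co3 was Gm28437 (SD 0.09 and 0.07), which is itself a copy of mt-Co3 on chromosome 1. Next came Nudt14 (0.25 to mt-Co2, with 3 to 76 counts per library) and Gm10925 (0.28), whose transcript is identical to mt-Atp6 over 678 nt, and both also came next for mt-Co3. The closest to mt-Co1 were Gm20594 (0.45), a transcript 88.5% identical to mt-Rnr2 over 435 nt, Gm28661 (0.54), a copy of mt-Co2, and Ugt1a7c (0.60, with 2 to 42 counts per library).

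Against each of the 10 mRNAs outside complex IV taken by itself, mt-Co1 was lower at 65 W in 10 of 10 mean log2 ratios, from -1.41 against mt-Nd4l to -0.69 against mt-Nd2, with a median of -0.77. The age groups did not overlap for 2 of the 10, mt-Nd4l and mt-Nd6. All 10 ratios of an mRNA share its counts, so their signs are not independent. For mt-Co2, 7 of 10 mean log2 ratios were lower at 65 W, with a median of -0.04 and a range from -0.69 to 0.04. For mt-Co3 they were lower in 10 of 10, with a median of -0.10, a range from -0.74 to -0.02 and standard errors from 0.06 to 0.35. For both mRNAs the groups did not overlap against mt-Nd4l alone, itself an mRNA whose 65 W libraries all lay above the 12 W libraries. Among the 45 pairs that the 10 other mRNAs form, 8.89% had groups that did not overlap. All of these were pairs with mt-Nd4l, formed with mt-Cytb, mt-Atp8, mt-Nd1 and mt-Atp6.

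**Figure D4:**
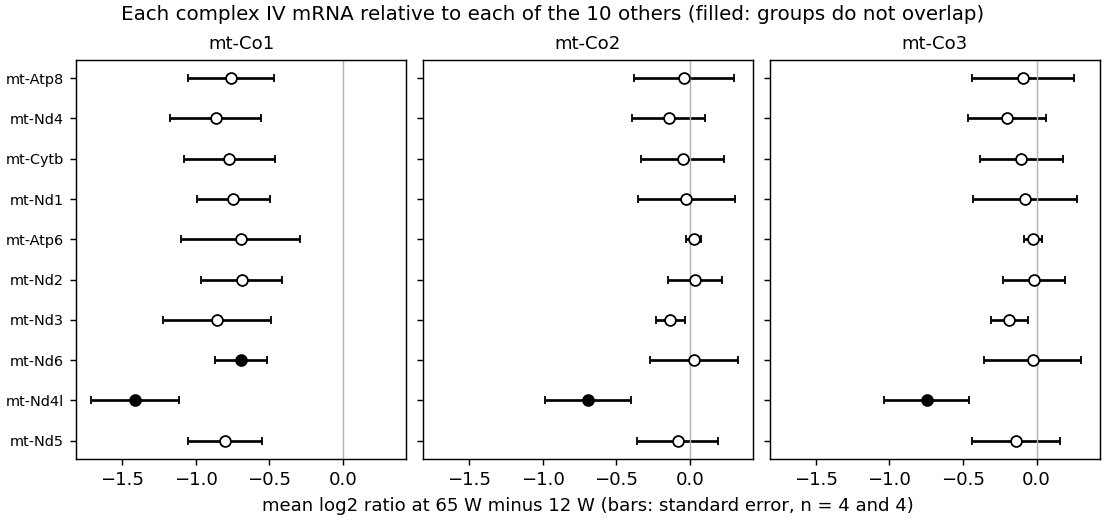
Mean log2 ratio of each complex IV mRNA to each of the 10 other mitochondria-encoded mRNAs at 65 W minus that at 12 W (x axis), with the standard error from 4 and 4 libraries as bars and filled symbols where the age groups do not overlap. All 10 symbols lie left of 0 for mt-Co1 (-1.41 to -0.69) and, closer to 0, for mt-Co3 (-0.74 to -0.02), and 7 of 10 do so for mt-Co2 (-0.69 to 0.04).

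Divided by annotated coding length, mt-Co3 was the most abundant of the complex IV mRNAs. Its level was 154 ± 38.8 counts per kilobase per 1000 counts of the 10 mRNAs (SD over 8 libraries, both ages). The level was 89.9 ± 20.8 for mt-Co2 and 60.4 ± 23.2 for mt-Co1. Within libraries, mt-Co2 was below mt-Co3 in 8 of 8 (mean log2 ratio -0.77, SD 0.10), and mt-Co1 was below mt-Co3 in 8 of 8 (-1.41, SD 0.64). Both differences had an adjusted p of 0.0117 in a two-sided exact sign-flip permutation test over 3 pairs, from 0.0078125, the smallest p that 8 libraries allow. Per kilobase mt-Co1 was below mt-Co2 in 7 of 8 libraries, 12W-1 being the exception (mean log2 ratio -0.64, SD 0.63, adjusted p = 0.03125 in the same exact test). This mean was -0.28 at 12 W and -0.999 at 65 W, and the adjusted exact p was 0.0625 after leaving out any of 12W-3, 12W-4, 65W-2, 65W-3 or 65W-4. For mt-Co1 to mt-Co3 the mean was -1.08 at 12 W and -1.75 at 65 W. The tests pooled both ages, so the lower mt-Co1 at 65 W, known when the genes were chosen, enters the p-values of both pairs with mt-Co1. The mt-Co1 mRNA is the longest of the 3, and a cDNA that stops short of the 5′ end still counts as a read, so the order depends on the division by length. Without it, mt-Co1 had more counts than mt-Co2 in 7 of 8 libraries. It then had fewer counts than mt-Co3 in 6 of 8, and the adjusted p of that pair was 0.117 in the exact permutation test.

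On the same scale per kilobase over all 13 mRNAs, mt-Co3 came after mt-Atp8 (569.6 ± 62.1) and mt-Nd4 (305 ± 19.7). It ranked between 3 and 5 in single libraries, and its distance to mt-Cytb, the next below, at 138 ± 9.46, was within the spread of their ratio. mt-Co2 was in place 7, below mt-Atp6 (106 ± 26.0) and above mt-Nd2 (66.4 ± 5.71). Both mean log2 ratios were beyond their SD over the libraries, and the order was the same in 8 of 8 libraries. By the mean of all 8 libraries mt-Co1 was in place 9, but this held at neither age. At 12 W, with 76.8 ± 19.7 (SD, n = 4), it was in place 8, above mt-Nd2 (69.2 ± 4.27), and at 65 W, with 44.0 ± 12.0, in place 10, below mt-Nd3 (52.8 ± 14.3). Its rank in single libraries ranged from 6 to 10. Over the 8 libraries its ratios to its neighbours, mt-Nd2 above and mt-Nd3 below (51.4 ± 9.51), were within their spread. Below these came mt-Nd6, mt-Nd4l and mt-Nd5. mt-Atp8 and mt-Nd4l overlap mt-Atp6 and mt-Nd4, and how reads were divided between them is not given.

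**Figure D5:**
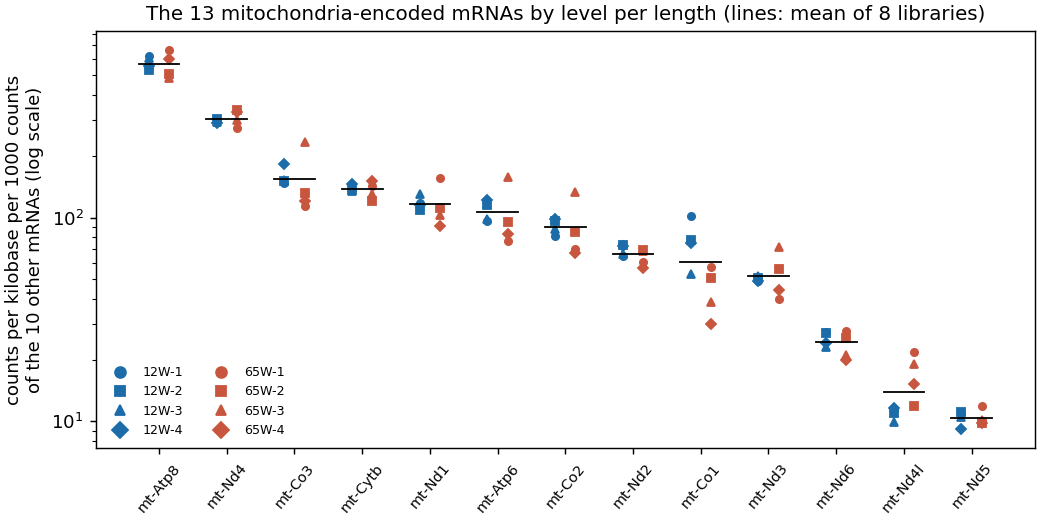
Counts per kilobase of annotated coding length per 1000 counts of the 10 mRNAs outside complex IV (y axis, log scale) for the 13 mitochondria-encoded mRNAs in the order of their means (x axis), with each 12 W library in blue, each 65 W library in red and black lines for the mean of 8 libraries. The 8 values of mt-Co1 run from 30.0 to 101 and those of mt-Co3 from 114 to 234.

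The nuclear genome carries near-identical copies of these genes side by side on chromosome 1 of GRCm38, and reads could have been counted on either. Gm28437 (24613189 to 24613971, minus strand) matches mt-Co3 without a mismatch over 783 nt, and Gm28661 (24614885 to 24615565, minus strand) matches mt-Co2 without a mismatch over 681 nt. Gm29216 (24615706 to 24616197, minus strand) matches bases 1063 to 1545 of mt-Co1 with a single difference, A1066T (position from the 5′ end of mt-Co1, base of mt-Co1 first). It therefore resembles the 3′ part of mt-Co1 alone. The level of each mRNA is uncertain to the extent of these shared reads. The further copies Gm13340 (of mt-Co1), Gm13341 and Gm12155 (of mt-Co2) had 17, 20 and 4 counts.

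Of the counts on mt-Co3 and Gm28437 together, the copy held 16.1 to 16.6% at 12 W and 16.2 to 18.1% at 65 W. The share of Gm28661 in the counts of mt-Co2 and its copy was 5.18, 6.05, 5.75 and 5.69% at 12 W and 3.54, 4.04, 1.95 and 5.81% at 65 W, so that 3 of the 65 W libraries lay below all 12 W libraries. The share of Gm29216 beside mt-Co1 was the most uneven, with 11.3, 14.8, 4.36 and 12.2% at 12 W, and with 0, 13.7, 12.0 and 0% at 65 W. The 0 counts allow a share of up to 0.426% in 65W-1 and up to 0.0897% in 65W-4.

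With all copies added to their gene, mt-Co1 had 176, 141, 85.8 and 132 counts per 1000 counts of the 10 mRNAs in 12W-1 to 12W-4, and 88.2, 90.0, 67.8 and 46.5 in 65W-1 to 65W-4. Both ages still overlapped through 12W-3, and the means of 134 ± 37.3 and 73.1 ± 20.4 (SD, n = 4 each) gave a log2 difference of -0.88 (standard error 0.31). The summed difference was -0.12 for mt-Co2 and -0.13 for mt-Co3. For all 3 mRNAs these values lay within 1 standard error of those without the copies. Copies of the 10 reference mRNAs, such as Gm10925 for mt-Atp6, were not added to the reference, so levels with copies are raised relative to it.

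The nuclear partners of these mRNAs were present only in traces. Of 18 genes for nuclear complex IV subunits and their substrate cytochrome c, 14 had a row, with 337 counts over all libraries. Cox6c had 54, Cox8a 44, Cox7c 34 and Cox6b1 and Cox7b 29 each. The list summed to 59, 21, 64 and 87 counts in 12W-1 to 12W-4 and to 10, 36, 16 and 44 in 65W-1 to 65W-4, or 3.86 and 4.68 per 10000 counts. Of 25 factors for complex IV assembly and COX1 synthesis, 14 had a row, with 37 counts, led by Pet100 (8), and with 4 each for Coa6, Cox14 and Cox20. Of 23 factors of mitochondrial transcription, RNA stability and processing, 7 had a row, with 17 counts, including 5 each for Slirp, a stabilising partner of mitochondrial mRNAs, and Hsd17b10, a subunit of the RNase that cuts tRNA ends. None of these 3 lists had a transcript deep enough to be kept in the fit, so a difference between the ages was not detectable at this depth.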

How the data were processed

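The deposited values are read counts per Ensembl transcript for 8 libraries, produced by the authors in an Epi2Me Labs workflow for differential expression and not normalised. The submitters' processing notes name minimap2, SAMtools, edgeR, GRCm38 and mm10. Age and replicate number were read from the sample labels. Of 8688 rows, 8591 were matched to GENCODE on GRCm38, and the 97 others held 0.0946% of the counts. mt-Rnr2, the study's reference, had no row among those matched and could not be used here. Levels are counts per 1000 counts of the 10 mitochondria-encoded mRNAs outside complex IV. Of every 1000 such counts, mt-Nd4 alone supplied from 380 (65W-1) to 462 (65W-2). With mt-Nd4 and mt-Nd4l left out of the reference, the log2 age differences were -0.76 for mt-Co1, -0.04 for mt-Co2 and -0.09 for mt-Co3. The 65 W libraries rest on fewer counts. No pair of libraries within an age agreed within sampling noise. The labels give biological replicates without naming animals, so p-values measure only the spread between these libraries, which may be technical in part.

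The members and lists were chosen with earlier results of these data known, so age differences of the members are descriptions. Named were the members, the 10 reference mRNAs, the 3 transcripts with the steadiest ratio to each member (0.5 added to counts), nuclear copies (blastn 2.17.0, at least 80% identity over 100 nt) and up to 4 leading genes per list, ties included. The order of the members was tested by two-sided exact sign-flip permutation (scipy 1.17.1) with Benjamini-Hochberg adjustment. All transcripts kept by filterByExpr (132) were fitted with edgeR 4.0.16 (R 4.3.3, quasi-likelihood, TMM, threshold 0.05), and DESeq2 1.42.0, other scalings, filters, references and leaving out libraries were alternatives. Shares carry 95% Wilson intervals, and a count of 0 allows up to 3 counts. The comparison of all 78 pairs was added after the values were seen. Sequences and coordinates are from GENCODE transcripts on GRCm38.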

Additional observations from a re-analysis of the deposited data

Results flagged for a closer look

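Among 20 groups of 4 libraries examined, 3 had a library far from the other 3, where chance gives about 1. All 3 concern mt-Co3 or its copies. mt-Co3 had 143 counts per 1000 counts of the 10 other mRNAs in 12W-4, against 116 to 119.9 in the other 12 W libraries. It had 183 in 65W-3, against 89.1 to 103 in the other 65 W libraries. The summed copies of mt-Co3 had 35.3 counts per 1000 in 65W-3, against 19.7 to 21.7 in the others. The flags of mt-Co3 and of its copies in 65W-3 are not independent, since the copy Gm28437 matches mt-Co3 without a mismatch. The depth of 65W-3 was 22651 counts, and the part of this depth in its values was not tested.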

How the results depend on the processing

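Of 179 values recomputed under alternatives, 155 stayed on their side of the threshold, or within the spread or 1.5 times the count reported. The age differences per 1000 counts kept their sign under the 8 other references and settings: -0.95 to -0.73 for mt-Co1, -0.26 to -0.01 for mt-Co2 and -0.33 to -0.06 for mt-Co3. With one library left out they were -0.98 to -0.64, -0.30 to 0.03 and -0.38 to -0.03. The age differences of the ratios were then -0.96 to -0.46 (mt-Co1 to mt-Co2), -0.92 to -0.38 (mt-Co1 to mt-Co3) and 0.02 to 0.10 (mt-Co2 to mt-Co3).

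For the order per kilobase, leaving out the division by length turned the mean log2 ratio of mt-Co1 to mt-Co2 to 0.54 and moved that of mt-Co1 to mt-Co3 to -0.43 (adjusted p = 0.117, exact permutation test). Without both shallow 65 W libraries mt-Co1 to mt-Co2 was -0.50 (adjusted p = 0.0938, exact permutation test). With one library left out it ranged from -0.77 to -0.47, losing the call in 5 of 8 cases, where fewer libraries also raise the smallest p.

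The 2 calls over all transcripts became 0 without a scaling factor (11 at an unadjusted p under 0.05 in edgeR), 1 with at least 10 counts in every library, 4 per gene, 5 with copies summed, 4 without both shallow libraries, 7 with DESeq2 and between 1 (12W-3 removed) and 7 (12W-2 removed) when a single library was dropped. The fitted differences in edgeR with one library left out were -0.98 to -0.46 for mt-Co1, -0.18 to 0.26 for mt-Co2 and -0.18 to 0.15 for mt-Co3. Under the other settings they ranged more widely, from -1.32 (no filter on low counts) to -0.39 (without both shallow libraries) for mt-Co1, and under the same settings from -0.58 to 0.27 for mt-Co2 and from -0.64 to 0.19 for mt-Co3. The cause was not tested.

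The labels do not say whether replicate numbers pair the libraries. Deviations of same-numbered libraries correlated at 0.70, 0.35, 0.05 and -0.23 over the 13 mRNAs. Over the 132 transcripts kept, the correlations for the same replicates were -0.12, 0.26, -0.40 and 0.22. Libraries of different numbers were not compared in this way, and a pairing was not tested. With a replicate block, 3 transcripts were called, and mt-Co1 was among them (edgeR, adjusted p = 0.0416). No other setting of the fit over all transcripts called mt-Co1, mt-Co2 or mt-Co3. The fitted differences with the block were -0.79 for mt-Co1, -0.07 for mt-Co2 and -0.12 for mt-Co3. Nothing is read from these fits. Depth limits 65W-1 most, with 381 counts on mt-Co2.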
